A study of Mus musculus with 2 samples.

Results

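The genes described here encode core protein subunits of the spliceosome. The rule that chose them reads name and annotation alone, and it was set with earlier results of these data known. A gene entered if it had a protein-coding transcript in GENCODE M21 and a symbol that starts with Sf3a, Sf3b, Snrp, U2af or Prpf. Names ending in -ps were left out. The rule found 37 genes among 21901 with a protein-coding transcript. It takes in the Sm proteins, most proteins of the U1 and U2 particles, the U2AF factors and the Prpf proteins, and it leaves out genes such as Snrnp70 whose symbols start otherwise. Those are covered by a list of 75 further spliceosome genes.

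Polyadenylated RNA was sequenced from G1E-ER4, an immortalised mouse erythroid line of male origin that was derived from Gata1-null cells and carries GATA1 fused to an estrogen receptor domain, so that estradiol switches GATA1 function on. All cells had received 17beta-estradiol at 10 nM for 24 h, which starts erythroid differentiation in this line. The data form 1 group of 2 libraries, replicates 1 and 2 in the labels, with no untreated cells and no parental cells, so every value below is a level in treated cells and no test between conditions was possible. Both libraries carry the same biosample record, and the labels name no separate cultures, so their spread may be technical.

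Total expected counts were 71485620 for replicate 1 and 14121747 for replicate 2, a 5.06-fold difference in depth, and a value of replicate 2 therefore carries more counting error. Of 8 erythroid markers, 8 reached 1 TPM (a level corrected for transcript length and library depth) in each replicate, with a summed level of 169612 TPM in replicate 1 and 70635 in replicate 2. Of 8 markers of myeloid, lymphoid, stromal, endothelial and megakaryocytic cells, none reached 1 TPM, their sum was 0.10 TPM in replicate 1 and 0.23 in replicate 2, and Csf1r and Pf4 had no counts at all.

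The spliceosome removes introns from pre-mRNA. The U1 particle binds the donor splice site, U2AF and the U2 particle recognise the acceptor end and the branch point, and a tri-snRNP of U4, U6 and U5 then joins and is remodelled into the catalytic machine. Each of these particles except U6 holds a small nuclear RNA wrapped by a ring of Sm proteins. Late erythroid differentiation is known for a program of changing splicing and intron retention, and SF3B1 and U2AF1 are genes recurrently mutated in human myelodysplasia.

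Levels spanned a wide range around the middle of expressed genes. Of the 37 genes, 31 reached 1 TPM in each replicate, against 33.3% of all genes with a protein-coding transcript. All 37 reached 1 TPM in replicate 1 and 31 did in replicate 2. Their median was 42.7 TPM in replicate 1 and 10.5 in replicate 2, beside 20.2 TPM and 15.3 TPM for the 7283 detected protein-coding genes. The core subunits thus had 26 of 37 members at or above that median in replicate 1 and 17 of 37 in replicate 2. That median is over genes at 1 TPM or more in each replicate, while the 37 include members below 1 TPM in replicate 2. The comparison is therefore uneven, and no lower standing of the core subunits in replicate 2 can be read from it. The range was 1.04 to 456 TPM in replicate 1, and in replicate 2 it was 0 to 2202 TPM. Across the 37 genes the order of levels was similar in both replicates (Spearman rho 0.86, a description across genes that share both libraries). Only 4 of the 36 pairs of neighbours in the order of mean levels had replicate ranges that did not overlap.

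**Figure D1:**
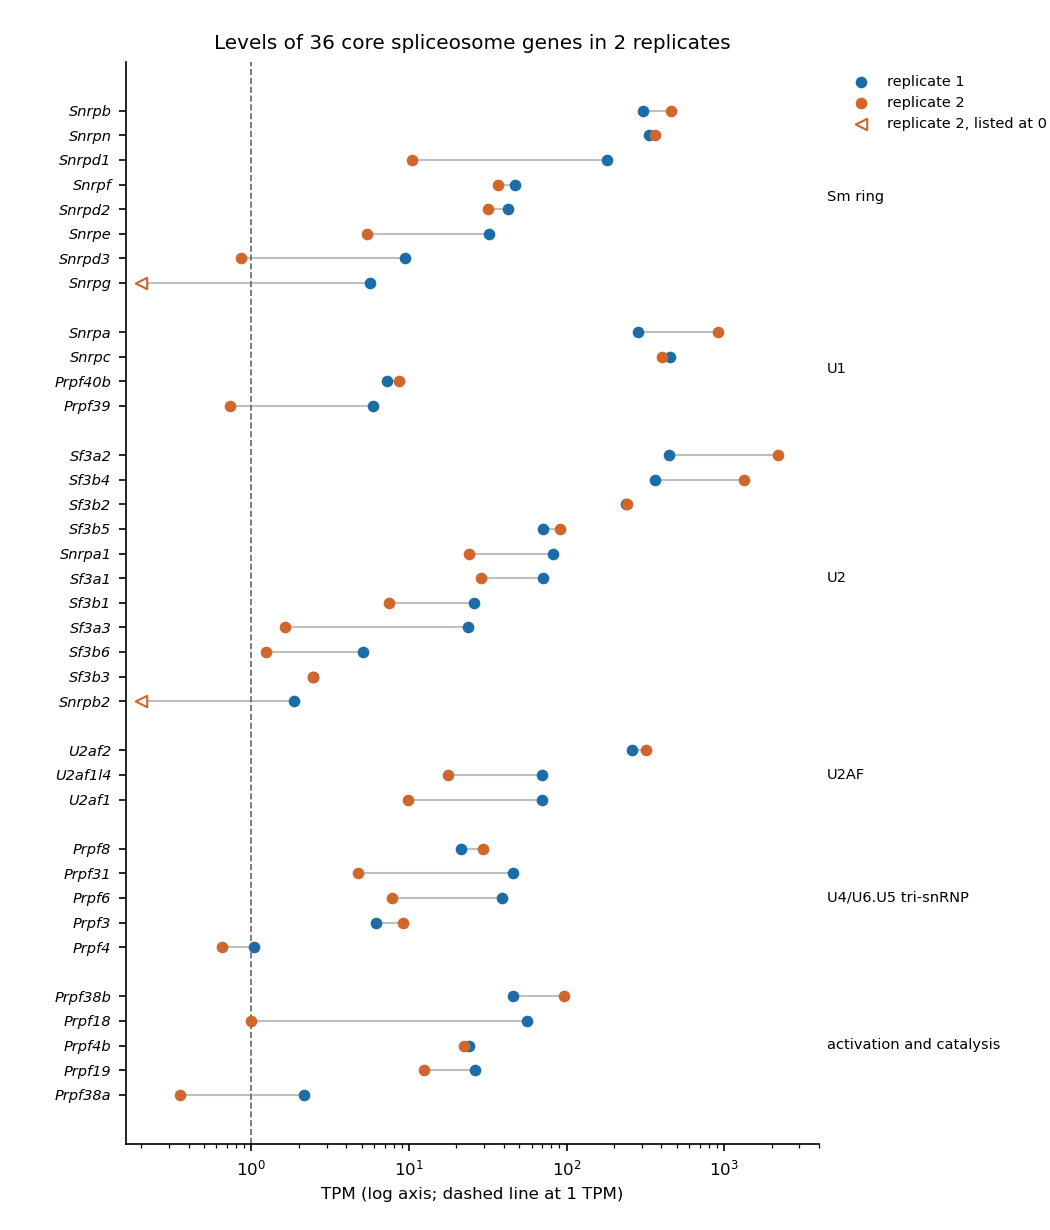
TPM of 36 of the genes in replicate 1 (blue) and replicate 2 (orange) on a log axis, by role and by mean level within a role, with a grey line joining the replicates and open triangles for genes listed at 0. Sf3a2, Sf3b4 and Snrpa lie furthest to the right in replicate 2, and Snrpg and Snrpb2 were listed at 0 there.

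A pair of deposited tables quantify the same reads with the same annotation, and the difference between them sets how far a value can be read. The gene table made from an alignment to the transcriptome is the source of the levels here and is called the alignment table below. In the transcript table made from the reads, 3 genes of 57 bases annotated as miRNAs (Gm23935, Gm24245 and Gm24270) took 18.7% of all TPM in replicate 1 and 72.7% in replicate 2, so its TPM were rescaled so that nuclear protein-coding genes alone make up the total and are called the rescaled read table. In the alignment table these 3 genes were listed at 0. Some of the 37 genes also share sequence with other entries: 13 overlap exons of another gene, 4 of them on the same strand, and for 5 of the 37 at least 50% of the runs of 31 bases in the leading transcript occur in transcripts of other genes (Sf3b4, Snrpf, Snrpg, U2af1 and U2af1l4). For 8 of the 37 no such run does. Reads of genes that share sequence could be divided in more than 1 way, so their levels are uncertain.

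The replicates differed strongly at many of these genes, mostly with the lower value in replicate 2. In the alignment table, 23 of 37 were over 2-fold apart, 4 higher and 19 lower in replicate 2, while 14 lay within 2-fold. Of 8526 protein-coding genes whose expected counts averaged 50 or more, 50.3% differed over 2-fold, 15.1% higher and 35.2% lower in replicate 2. The median log2 ratio of TPM + 1, replicate 2 over replicate 1, was -1.03 over the 37 genes and -0.31 over the 8470 protein-coding genes that reached 1 TPM in a replicate. In the rescaled read table, 13 of 37 were over 2-fold apart, 2 higher and 11 lower in replicate 2, against 37.2% of 9195 genes, 16.2% higher and 21% lower. There the median log2 ratio was -0.31 over the 37 genes and -0.08 over 8948 such genes. All 13 of these genes had the same direction in the alignment table, and none of the 37 was called in opposite directions. Without rescaling, the read table gave 0 higher and 30 lower of 37, with 2.29% of all genes higher and 75.3% lower. Nothing in the files says which replicate or which table is nearer to the cells. The genes below are therefore given in both replicates. Where the tables differ in whether a gene was over 2-fold apart, they are given in both tables.

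**Figure D2:**
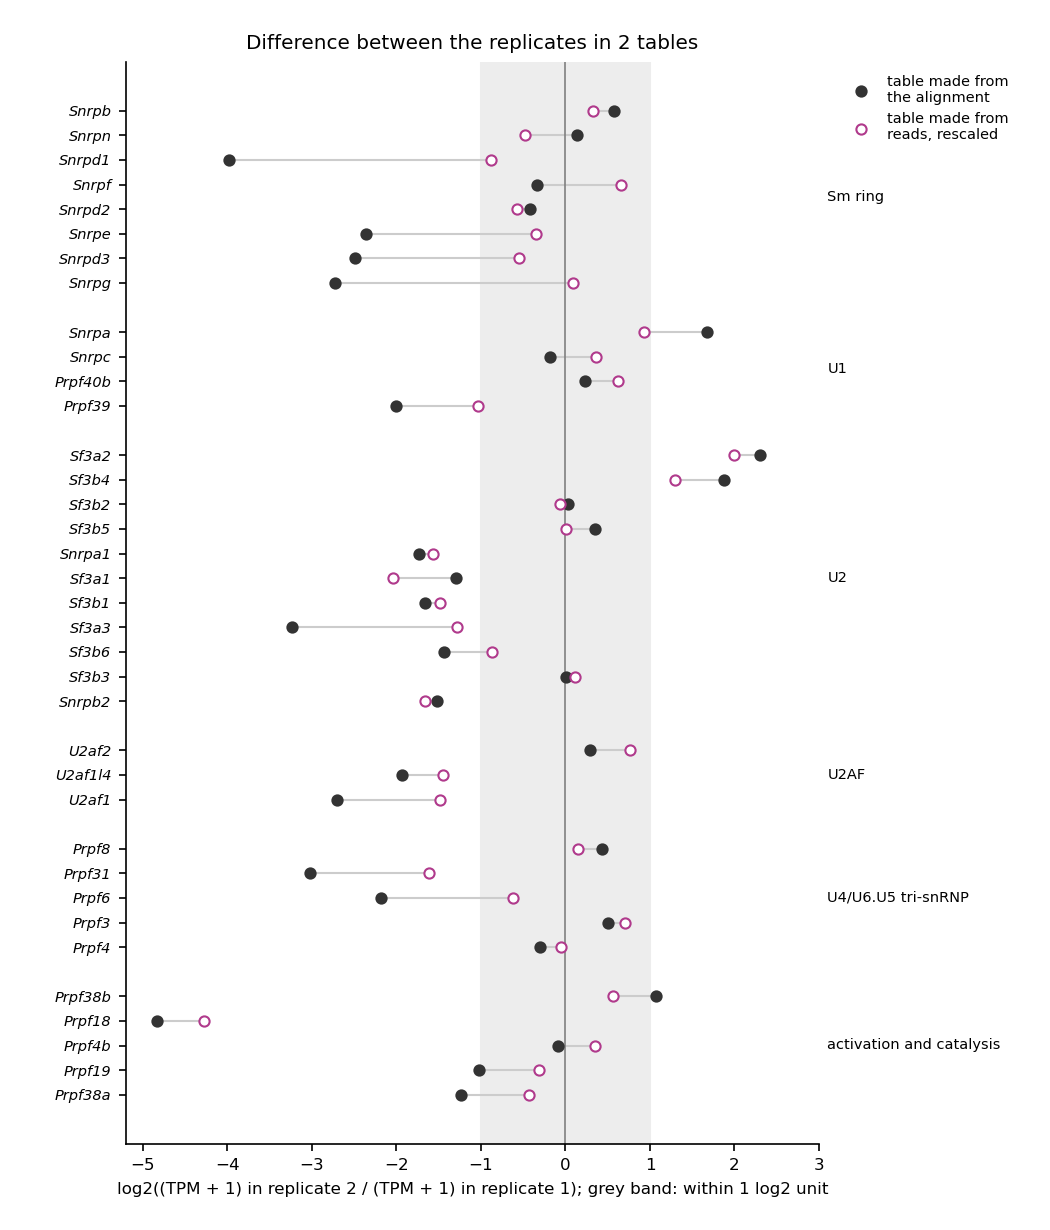
The log2 ratio of TPM + 1, replicate 2 over replicate 1, for 36 of the genes in the alignment table (filled) and in the rescaled read table (open), by role, with a grey band for differences of at most 1 log2 unit. Sf3a2 and Sf3b4 lie right of the band and Prpf18 far left of it in both tables, whereas Snrpd1, Snrpe, Snrpd3 and Snrpg lie left of it in the alignment table and inside it in the other.

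In bulk RNA, fewer cells that express a gene and less of its RNA per cell cannot be told apart. The composition of the sequence was only loosely related to the difference between replicates. The GC content of the leading transcript had a median of 56.7% over the 4 genes higher in replicate 2, of 49.8% over the 19 lower and of 50.2% over the 14 within 2-fold. It ranged from 45.6% to 62.2% over the 4 higher genes and from 38.5% to 55.0% over the 19 lower, so the ranges overlapped. Across the 37 genes its rank correlation with the log2 ratio was 0.27, and across 8470 protein-coding genes it was 0.25, both descriptions over genes that share the same 2 libraries. The leading transcript was longer in the 4 higher genes, with a median of 2011.5 bases, than in the 19 lower ones, with a median of 955 bases. The rank correlation of its length with the log2 ratio was 0.23 across the 37 genes and 0.09 across the 8470. The leading transcript was here the one with the highest mean TPM of both replicates. Its GC content and length are thus not independent of the ratio they are set against. The part of GC content and length in the difference between replicates was not tested.

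The Sm ring holds 7 different proteins in equal number, and the levels of their mRNAs were far from equal. Snrpb, which encodes the SmB protein, was at 307 TPM in replicate 1 and 458 in replicate 2, the highest of the 7 in the alignment table. Snrpg, which encodes the smallest ring protein, SmG, was at 5.63 TPM in replicate 1 and listed at 0 in replicate 2, the lowest. The highest mean was thus 136 times the lowest, and in replicate 1 alone the ratio was 54.5. The rescaled read table gave a narrower ring, 46.4-fold from highest to lowest in replicate 1 and 49.99-fold in replicate 2, with Snrpd1 the highest in replicate 1 and Snrpb in replicate 2.

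The remaining ring genes fell into those with close replicates and those far apart. Snrpf (SmF) was at 46.8 TPM in replicate 1 and 36.9 in replicate 2. Snrpd2 (SmD2) was at 42.7 TPM in replicate 1 and 31.8 in replicate 2. With the earlier GENCODE M4 annotation Snrpd2 was at 123 TPM in replicate 1 and 93.7 in replicate 2. Snrpf, Snrpd2 and Snrpb stayed within 2-fold in both tables. Snrpd1 (SmD1) was at 180 TPM in replicate 1 and 10.5 in replicate 2, a 17.2-fold gap that rests on 6554 and 62 expected counts. In the rescaled read table it was at 492 TPM in replicate 1 and 266 in replicate 2, within 2-fold. Snrpe (SmE) showed the same contrast between tables, with 32.1 TPM in replicate 1 and 5.43 in replicate 2 in the alignment table. It had 52.5 TPM in replicate 1 and 41.0 in replicate 2 in the rescaled read table. Snrpd3 (SmD3) was at 9.47 TPM in replicate 1 and 0.86 in replicate 2 in the alignment table, and at 11.9 TPM in replicate 1 and 7.77 in replicate 2 in the rescaled read table. For these ring genes the large gaps between replicates were therefore seen in 1 table only.

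Snrpg gives the clearest case. It had 166 expected counts in replicate 1 and 0 in replicate 2, which makes it at least 11.0-fold lower in replicate 2 when 3 counts in that library stand for the floor. The read table assigned 395 counts to it in replicate 1 and 100 counts in replicate 2, and after rescaling the levels were 10.6 TPM in replicate 1 and 11.4 in replicate 2. Of the runs of 31 bases in its leading transcript, 55.9% also occurred in transcripts of other genes, chiefly the processed pseudogene Gm8186. The 0 in replicate 2 was thus not seen in the other table.

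Snrpn, the imprinted paralog of Snrpb that is best known from brain, was close to Snrpb in the alignment table and lower than Snrpb in the read table. It was at 332 TPM in replicate 1 and 364 in replicate 2, averaging 348 ± 23.0 TPM (SD, n = 2), beside 382 ± 107 TPM for Snrpb. The ratio of Snrpn to Snrpb was 1.08 in replicate 1 and 0.80 in replicate 2. By the read table it was 0.85 in replicate 1 and 0.49 in replicate 2. Snrpn shares 589 exonic bases on the same strand with Gm38393, a protein-coding gene at 17.4 TPM in replicate 1 and 376 in replicate 2, and 32.2% of the runs of 31 bases in its leading transcript occur in other genes. How reads were divided between Snrpn and Gm38393 is uncertain, and the level of Snrpn carries that uncertainty. Snurf, which is made from the same locus, was listed at 0 in both replicates.

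Among the U1 genes, the 2 whose proteins contact U1 RNA or its helix with the donor site had high mRNA levels. The mRNAs of the associated Prpf40b and Prpf39 were low. Snrpc, the C protein of U1, which stabilises the pairing of U1 with the donor site, was at 456 TPM in replicate 1 and 402 in replicate 2. Snrpa, the A protein of U1, which binds a stem loop of U1 RNA, was at 286 TPM in replicate 1 and 916 in replicate 2, 3.20-fold higher in replicate 2. In the rescaled read table Snrpa was at 339 TPM in replicate 1 and 646 in replicate 2, 1.91-fold higher and so within 2-fold. Prpf40b, a counterpart of a yeast protein that bridges U1 to the branch-point side of the intron, was much lower, at 7.21 TPM in replicate 1 and 8.62 in replicate 2. Prpf39, a U1-associated protein, was at 5.94 TPM in replicate 1 and 0.73 in replicate 2, over 2-fold lower in replicate 2 in both tables.

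The U2 particle held both the highest and some of the lowest genes. Sf3a2, a subunit of the SF3a heterotrimer that joins U2 RNA to SF3b, was the highest of all 37 by mean level. It was at 446 TPM in replicate 1 and 2202 in replicate 2, on 66185 and 56629 expected counts. In the rescaled read table it was at 484 TPM in replicate 1 and 1932 in replicate 2, 3.99-fold higher in replicate 2. Its exons overlap those of Plekhj1 on the opposite strand by 429 bases, and Plekhj1 was at 228 TPM in replicate 1 and 104 in replicate 2. Its partners were far lower: Sf3a1 was at 71.1 TPM in replicate 1 and 28.4 in replicate 2. Sf3a3 was at 23.8 TPM in replicate 1 and 1.63 in replicate 2. The 3 proteins occur in equal number in SF3a, while the ratio of the Sf3a2 level to the Sf3a1 level was 6.28 in replicate 1 and 77.4 in replicate 2 in the alignment table. The read table put that ratio at 3.36 in replicate 1 and 56.4 in replicate 2.

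SF3b, which clamps the branch point, showed the same unevenness. Sf3b4, an RNA-binding subunit near the branch region, was at 365 TPM in replicate 1 and 1336 in replicate 2. The rescaled read table put it at 349 TPM in replicate 1 and 860 in replicate 2, so that it was over 2-fold higher in replicate 2 in both. Sf3b4 shares 57.9% of the runs of 31 bases in its leading transcript with other genes, mainly the processed pseudogene Gm7935. Sf3b2, the partner of Sf3b4 in the complex, was at 238 TPM in replicate 1 and 242 in replicate 2, averaging 240 ± 3.25 TPM (SD, n = 2). These close values depend on the annotation and the unit: with the earlier GENCODE M4 annotation Sf3b2 was at 126 TPM in replicate 1 and 62.2 in replicate 2. Its CPM, the expected count scaled by depth and not corrected for length, was 379 in replicate 1 and 156 in replicate 2. Sf3b5, a small subunit, was at 71.4 TPM in replicate 1 and 91.5 in replicate 2. Sf3b1, the large repeat protein that closes around the branch helix, was at 25.7 TPM in replicate 1 and 7.43 in replicate 2, over 2-fold lower in replicate 2 in both tables. Sf3b6, which sits on Sf3b1 near the branch adenosine, was at 5.08 TPM in replicate 1 and 1.24 in replicate 2, where it had 5 expected counts. Sf3b3, the scaffold of SF3b, was at 2.45 TPM in replicate 1 and 2.46 in replicate 2, the lowest of the 6 by mean level. From the highest to the lowest SF3b gene the levels differed 149-fold in replicate 1 and 1078-fold in replicate 2. The range in the read table was 104-fold in replicate 1 and 232-fold in replicate 2. Sf3a2 and Sf3b4 together made up 21.8% of the summed TPM of the 37 genes in replicate 1 and 52.8% in replicate 2.

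The remaining U2 proteins bind a stem loop of U2 RNA as a pair. Snrpa1 was at 82.0 TPM in replicate 1 and 24.0 in replicate 2. Snrpb2, its partner, was at 1.87 TPM in replicate 1 and listed at 0 in replicate 2, on 111 and 0 expected counts, which is at least 7.31-fold lower in replicate 2 against the floor of 3 counts. The read table gave Snrpb2 299 counts in replicate 1 and 18 counts in replicate 2, and after rescaling 4.54 TPM in replicate 1 and 0.76 in replicate 2. The 2 partners thus stood far apart in level in each replicate and each table.

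U2AF recognises the acceptor end of the intron as a dimer. U2af2, the large subunit that binds the polypyrimidine tract, was at 259 TPM in replicate 1 and 318 in replicate 2. U2af1, the small subunit that reads the AG at the intron end, was at 70.0 TPM in replicate 1 and 9.87 in replicate 2. U2af1l4, a paralog of U2af1, was at 69.8 TPM in replicate 1 and 17.6 in replicate 2, so that it equalled U2af1 in replicate 1 and exceeded it in replicate 2. In the read table U2af1l4 was below U2af1, at 0.68 of its level in replicate 1 and 0.69 in replicate 2. The ratio of U2af2 to U2af1 was 3.70 in replicate 1 and 32.2 in replicate 2, and in the read table, 3.52 in replicate 1 and 17.1 in replicate 2. Both small subunits share much sequence with other entries: 65.7% of the runs in the leading U2af1 transcript occur elsewhere, mainly in the processed pseudogene Gm10232, and 94.5% of those in the leading U2af1l4 transcript occur in Gm49396, a protein-coding gene on the same strand at 1.43 TPM in replicate 1 and 0 in replicate 2.

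U2af1 mRNA comes with either of a pair of mutually exclusive exons of 67 bases, exon 3 of U2af1-202 and of U2af1-201. They are shown because the tables split U2af1 between them, with the bases that differ in capitals. The exons lie on the minus strand of mm10 at chr17:31652502-31652568 for U2af1-202 and chr17:31651646-31651712 for U2af1-201.
U2af1-202 alternative exon: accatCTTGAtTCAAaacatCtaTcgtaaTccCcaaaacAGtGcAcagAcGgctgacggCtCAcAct
U2af1-201 alternative exon: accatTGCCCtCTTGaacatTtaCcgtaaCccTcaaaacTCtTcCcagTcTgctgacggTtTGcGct
The exons differ at 23 of 67 positions and are 65.7% identical. U2af1-202 was at 53.8 TPM in replicate 1 and 9.09 in replicate 2, which is 76.9% and 92.0% of the gene's TPM. U2af1-201 was at 11.2 TPM in replicate 1 and 0 in replicate 2. The read table gave U2af1-202 a share of 61.0% in replicate 1 and 39.8% in replicate 2, and U2af1-201 a share of 32.4% in replicate 1 and 55.0% in replicate 2. U2af1-202 thus led in replicate 1 in both tables, and in replicate 2 the tables named different leading exons on 93 expected counts for the whole gene in the alignment table.

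The mRNAs of the tri-snRNP proteins were mid-range or low. Prpf8, the U5 scaffold that holds the catalytic core, was at 21.5 TPM in replicate 1 and 29.3 in replicate 2, and within 2-fold in both tables. Prpf6, which bridges U5 to U4 and U6, was at 39.1 TPM in replicate 1 and 7.83 in replicate 2, but at 37.4 TPM in replicate 1 and 24.0 in replicate 2 in the rescaled read table. Prpf31, which binds U4 RNA with its core protein, was at 45.6 TPM in replicate 1 and 4.72 in replicate 2, and over 2-fold lower in replicate 2 in both tables. Prpf3 and Prpf4, partners on the U4 and U6 duplex, were low. Prpf3 was at 6.15 TPM in replicate 1 and 9.10 in replicate 2, and Prpf4 at 1.04 TPM in replicate 1 and 0.65 in replicate 2. Within 2-fold in both tables were Prpf8, Prpf3 and Prpf4. For Prpf3 this depends on the unit: its CPM was 10.0 in replicate 1 and 4.18 in replicate 2, on 716 and 59 expected counts.

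Of the genes for activation and catalysis, Prpf18 stood furthest apart between replicates. Prpf38b alone was over 2-fold higher in replicate 2 in the alignment table. Prpf38b, a relative of the activation factor Prpf38a, was at 45.6 TPM in replicate 1 and 96.9 in replicate 2. In the rescaled read table it was at 54.6 TPM in replicate 1 and 81.2 in replicate 2, within 2-fold. Prpf18, which helps the later step of splicing, was at 56.2 TPM in replicate 1 and 1.00 in replicate 2, a 56.2-fold gap. The rescaled read table gave Prpf18 48.9 TPM in replicate 1 and 1.58 in replicate 2, a 30.9-fold gap. Prpf4b, a kinase that acts on tri-snRNP proteins, was at 23.9 TPM in replicate 1 and 22.4 in replicate 2. With GENCODE M4 it was at 9.53 TPM in replicate 1 and 8.32 in replicate 2. Prpf19, the ubiquitin ligase at the heart of the Prp19 complex, was at 26.3 TPM in replicate 1 and 12.4 in replicate 2. In the rescaled read table Prpf19 was at 31.9 TPM in replicate 1 and 25.5 in replicate 2, within 2-fold. Prpf38a was at 2.17 TPM in replicate 1 and 0.35 in replicate 2, on 217 and 6 expected counts. The rescaled read table put Prpf38a at 3.36 TPM in replicate 1 and 2.23 in replicate 2, within 2-fold.

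The gene level hides which transcripts were assigned the reads. The 37 genes have 240 transcripts in the annotation, 92 of them protein-coding, 85 with a retained intron, 31 predicted targets of nonsense-mediated decay (NMD, the pathway that degrades mRNAs with an early stop codon) and 32 processed transcripts without an open reading frame. Retained introns in spliceosome genes, and exons that carry an early stop in genes for RNA-binding proteins, are known forms of control by which such genes limit their own protein. Of the 31 detected genes, 9 had at least 20% of their TPM in transcripts of types other than protein-coding in both replicates, against 33.1% of 7283 detected genes. In the read table, 11 of 31 did, against 36% of these genes, and 7 were common to both. The median share was 7.11% in replicate 1 and 7.03% in replicate 2, beside 8.34% and 5.41% for all detected genes. By the read table the median was 13.6% in replicate 1 and 26.2% in replicate 2, beside 10.4% and 9.87% for all detected genes. At the other end, 10 of 31 genes had under 1% in such transcripts in both replicates and both tables. For this count and for the 7 common to both tables, the share over all detected genes was not computed. Neither count can therefore be called high or low.

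Prpf4b, Snrpa1 and Sf3b6 each had at least 80% of their TPM in such transcripts in both replicates and both tables. In Prpf4b this was the retained-intron transcript Prpf4b-206, at 19.1 TPM in replicate 1 and 18.7 in replicate 2, or 80.1% and 83.5% of the gene. In Sf3b6 it was the retained-intron transcript Sf3b6-202, at 4.37 TPM in replicate 1 and 1.24 in replicate 2. Prpf4b-206 and Sf3b6-202 are short pieces of their genes, and TPM gives a short transcript more weight than a long one for the same number of fragments: by expected counts, Sf3b6 had 67.6% in such transcripts in replicate 1 where TPM gave 87.0%.

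**Figure D3:**
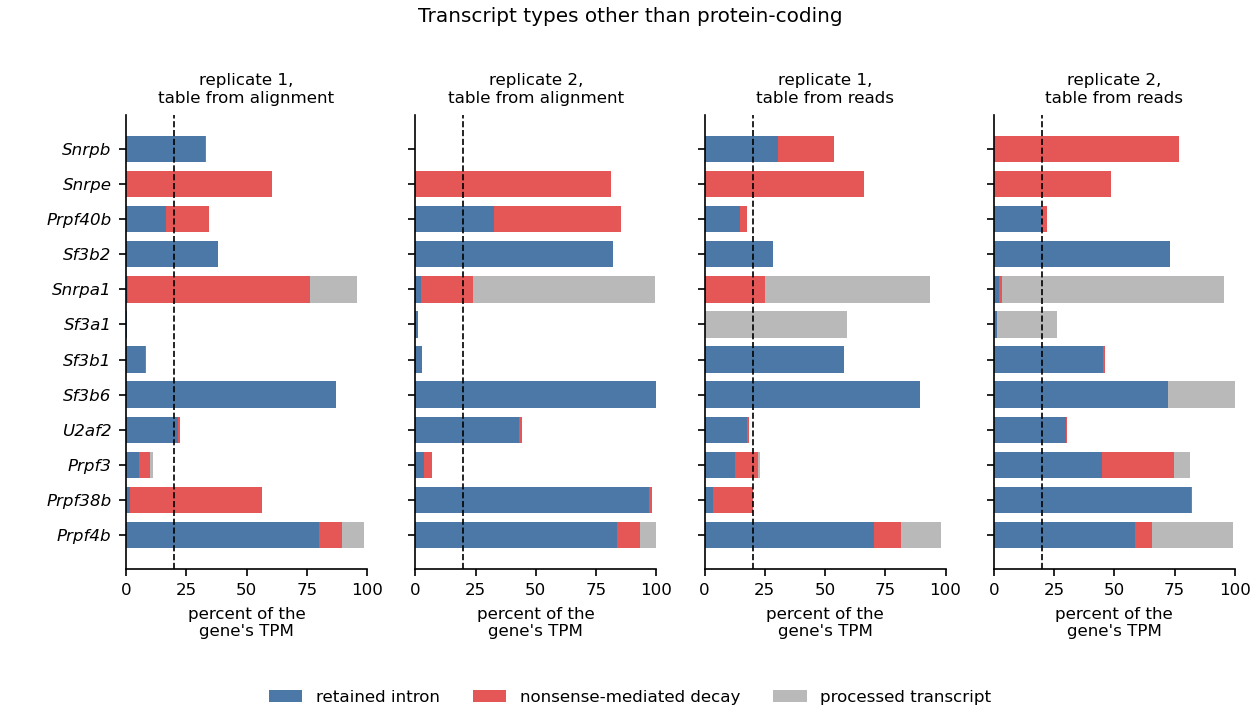
Percent of each gene's TPM in retained-intron (blue), NMD (red) and processed (grey) transcripts, in the alignment table and in the table made from reads, for 12 detected genes with at least 20% (dashed line) in both replicates of either table. Prpf4b, Snrpa1 and Sf3b6 exceed 80% in all 4 panels, and Snrpb, Sf3a1, Sf3b1 and Prpf3 pass the line in both replicates in the read table only.

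Snrpa1 was assigned mainly to the NMD transcript Snrpa1-201 in replicate 1 and to the processed transcript Snrpa1-208 in replicate 2. Snrpa1-201 was at 62.1 TPM in replicate 1 and 5.22 in replicate 2, and Snrpa1-208 at 15.9 TPM in replicate 1 and 15.7 in replicate 2. The protein-coding transcript Snrpa1-206 was at 3.28 TPM in replicate 1 and 0.10 in replicate 2. Snrpa1-201 lacks the exon of 80 bases that is the sixth of Snrpa1-206, at chr7:66070119-66070198 on the plus strand of mm10, a length that is no multiple of a codon. After the join the altered frame ends at a stop within 6 bases. The exon is shown because the early stop follows its absence. It is not the only difference, since Snrpa1-201 has 955 bases and Snrpa1-206 has 1248.
Snrpa1-206 exon absent from Snrpa1-201: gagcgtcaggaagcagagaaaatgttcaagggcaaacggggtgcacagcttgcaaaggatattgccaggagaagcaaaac
In the read table Snrpa1-201 held 24.8% of the gene in replicate 1 and 1.24% in replicate 2, and Snrpa1-208 held 67.5% in replicate 1 and 85.0% in replicate 2. The share of protein-coding transcripts was low in both tables, but the tables did not give the same leading transcript in replicate 1.

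Snrpb was a gene where the tables gave different NMD shares in both replicates. The alignment table gave the NMD transcript Snrpb-203 0.28 TPM in replicate 1 and 0 in replicate 2. The read table gave it 53.3 TPM in replicate 1 and 70.9 in replicate 2 on its own scale, or 23.2% and 76.7% of the gene. Snrpb-203 carries an extra exon 3 of 124 bases on the minus strand at chr2:130176629-130176752, and an early stop falls in it. The 58 bases of the exon up to that stop are shown with the stop in capitals.
Snrpb-203 extra exon up to its stop: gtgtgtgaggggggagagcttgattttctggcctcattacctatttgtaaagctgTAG
The protein-coding Snrpb-201 was at 206 TPM in replicate 1 and 457 in replicate 2 in the alignment table. The retained-intron transcript Snrpb-204 was at 100 TPM in replicate 1 and 0 in replicate 2, and in the read table at 69.5 TPM in replicate 1 and 0 in replicate 2. The absence of Snrpb-204 from replicate 2 was thus common to both tables, and the level of Snrpb-203 was not.

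Sf3b1 repeated this pattern with a retained intron. Its transcript Sf3b1-203 keeps the fourth intron of Sf3b1-201, 1813 bases at chr1:55014563-55016375 on the minus strand with a GC content of 32.9%. The alignment table gave Sf3b1-203 1.77 TPM in replicate 1 and 0 in replicate 2. The read table gave it 15.3 TPM in replicate 1 and 1.15 in replicate 2 on its own scale, or 55.8% and 38.2% of the gene. The share of Sf3b1 in all transcripts other than protein-coding was 8.36% in replicate 1 and 2.83% in replicate 2 in the alignment table, and 57.9% in replicate 1 and 46.2% in replicate 2 in the read table. The ends of that intron are shown with some exonic bases and with its GT and AG in capitals, at chr1:55016341-55016390 for the donor end and chr1:55014548-55014612 for the acceptor end.
Sf3b1 retained intron, donor end: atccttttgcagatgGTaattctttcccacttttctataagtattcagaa
Sf3b1 retained intron, acceptor end: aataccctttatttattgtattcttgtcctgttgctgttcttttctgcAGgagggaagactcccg
Intron retention in Sf3b1 was thus the majority form in replicate 1 by 1 table and a minor form by the other.

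Other retained-intron transcripts were assigned reads in both replicates and both tables. U2af2-207, which reads through the donor site of the fifth exon of U2af2-201 into 413 bases of a 1260-base intron, was at 46.2 TPM in replicate 1 and 127 in replicate 2, or 17.8% and 40.1% of the gene. Its share in the read table was 14.0% in replicate 1 and 24.3% in replicate 2. Sf3b2-206 was at 88.6 TPM in replicate 1 and 136 in replicate 2, or 37.3% and 56.2% of Sf3b2, and in the read table, 27.9% in replicate 1 and 44.4% in replicate 2. Prpf4b-206 reads through the donor site of the second exon of Prpf4b-201 into 339 bases of a 2242-base intron. Its share in the read table was 69.7% in replicate 1 and 57.6% in replicate 2. Prpf38b-205 reads through the donor site of the fourth exon of Prpf38b-201 into 1226 bases of a 2452-base intron. It was at 0.46 TPM in replicate 1 and 93.8 in replicate 2, and in the read table at 0.77 TPM in replicate 1 and 15.7 in replicate 2. It thus held 1.01% of Prpf38b in replicate 1 and 96.8% in replicate 2, with 1.90% and 81.3% in the read table. The donor sites that these transcripts leave unspliced are shown with the exon end first and the intron's GT in capitals, at chr7:5068169-5068218 on the plus strand for U2af2, chr13:34884413-34884462 on the plus strand for Prpf4b and chr3:108907752-108907801 on the minus strand for Prpf38b.
U2af2-207 donor read through: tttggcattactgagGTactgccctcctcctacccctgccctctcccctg
Prpf4b-206 donor read through: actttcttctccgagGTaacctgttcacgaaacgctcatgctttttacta
Prpf38b-205 donor read through: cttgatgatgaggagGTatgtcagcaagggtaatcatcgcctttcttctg
Whether a fragment inside such an intron comes from a finished transcript or from unspliced pre-mRNA cannot be told apart in these tables.

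Snrpe and Prpf38b also had NMD transcripts at high shares. Snrpe-206 was at 19.5 TPM in replicate 1 and 4.41 in replicate 2, or 60.7% and 81.2% of Snrpe, and in the read table, 66.0% in replicate 1 and 48.8% in replicate 2. Prpf38b-204 was at 23.9 TPM in replicate 1 and 1.22 in replicate 2, or 52.3% and 1.26% of Prpf38b. It carries an extra second exon of 53 bases with a stop within its first 6 bases. By the read table Prpf38b-204 held 16.4% in replicate 1 and 0% in replicate 2, and the protein-coding Prpf38b-201 led replicate 1 with 79.8%.

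Prpf40b, also past 20% in both replicates of the alignment table, had 34.6% in replicate 1 and 85.2% in replicate 2, and in the read table, 17.5% in replicate 1 and 22.0% in replicate 2. Prpf18 had a large share in such transcripts in replicate 1: Prpf18-203, a processed transcript of 496 bases, was at 50.7 TPM in replicate 1 and 0 in replicate 2, while the protein-coding Prpf18-201 was at 3.60 TPM in replicate 1 and 0.98 in replicate 2. The 56.2-fold gap in the gene level was thus largely the TPM of 1 short transcript, and that of the protein-coding transcript was smaller.

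The leading transcript, the one with the highest TPM, was the same in both replicates in 19 of 29 detected genes with several transcripts, against 64.1% of 6794 such genes. In the read table it was the same in both replicates in 18 of these 29, against 71.1%, and in 11 of the 29 it was the same in both replicates and both tables. It differed between replicates of the alignment table in Prpf18, Prpf31, Prpf38b, Prpf40b, Prpf8, Sf3b2, Snrpa, Snrpa1, Snrpd1 and U2af2. In Snrpa, Prpf8, Prpf31 and Snrpd1 the leading transcript was protein-coding in each replicate. Snrpa was 50.8% Snrpa-201 in replicate 1 and 87.7% Snrpa-203 in replicate 2, and Snrpa-203 was at 1.00 TPM in replicate 1 and 803 in replicate 2. In the read table Snrpa-203 led both replicates, with 36.2% in replicate 1 and 88.1% in replicate 2. Prpf8 was 99.5% Prpf8-201 in replicate 1 and 79.1% Prpf8-203, a shorter transcript, in replicate 2, and in the read table, 91.2% Prpf8-201 in replicate 1 and 62.2% Prpf8-203 in replicate 2. Prpf31 was divided between Prpf31-201 and Prpf31-202, with 49.7% and 46.1% in replicate 1 and 29.8% and 52.6% in replicate 2. In the read table Prpf31-202 led both replicates, with 45.7% in replicate 1 and 63.4% in replicate 2. Snrpd1 was divided between Snrpd1-201 and Snrpd1-203, with 51.3% and 48.7% in replicate 1 and 40.6% and 59.4% in replicate 2. By the read table Snrpd1-203 led both, with 84.9% in replicate 1 and 98.8% in replicate 2. A single transcript held at least 90% of the gene in both replicates and both tables for 6 of the 29: Sf3a2, Sf3a3, Sf3b4, Snrpc, Snrpd2 and Snrpn. For the counts over both tables, 11 and 6 of the 29, the share over all genes was not computed. They describe these genes only.

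Genes of the spliceosome outside the naming rule give the setting. Of the 75 on that list, 61 reached 1 TPM in each replicate, and their median was 21.1 TPM in replicate 1 and 10.1 in replicate 2. Of 72 compared, 11 were over 2-fold higher and 40 over 2-fold lower in replicate 2, next to the 15.1% and 35.2% of all genes. The highest was Sf1, which binds the branch point before U2 does, at 1027 TPM in replicate 1 and 3383 in replicate 2. Snrnp70, the remaining U1-specific protein, was at 764 TPM in replicate 1 and 235 in replicate 2. Puf60, a U2AF-like factor, was at 134 TPM in replicate 1 and 340 in replicate 2. In the U5 and tri-snRNP list the highest by mean level were Snrnp27 at 208 TPM in replicate 1 and 28.4 in replicate 2 and Eftud2, the U5 GTPase, at 169 TPM in replicate 1 and 9.51 in replicate 2. In replicate 2 Ddx23 led that list, at 57.3 TPM. Lsm4, of the Sm-like ring on U6, was at 724 TPM in replicate 1 and 197 in replicate 2.

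Some lists were less complete than others. The Lsm ring had 3 of 7 genes detected, with Lsm3, Lsm5, Lsm6 and Lsm8 under 1 TPM in replicate 2 and Lsm5 also in replicate 1. The list of 9 further U2 genes had 9 detected, of which 5 were over 2-fold higher and 2 over 2-fold lower in replicate 2. The list of 12 U5 and tri-snRNP genes had 10 detected, without Txnl4a and Ppih, and had 0 higher and 9 lower. The other genes under 1 TPM in a replicate were Luc7l3, Cdc5l, Aqr, Slu7, Cdc40, Zrsr1, Gemin4 and Gemin6. By mean level, the highest of the minor spliceosome list was Zcrb1 at 117 TPM in replicate 1 and 105 in replicate 2, that of the Prp19 complex list Rbm22 at 98.0 TPM in replicate 1 and 259 in replicate 2, that of the list of later steps Ddx39b at 230 TPM in replicate 1 and 203 in replicate 2, and that of the assembly list Gemin7 at 95.1 TPM in replicate 1 and 28.4 in replicate 2. In single replicates the order differed: Snrnp25 led the minor spliceosome list in replicate 1 at 142 TPM and Pdcd7 in replicate 2 at 126 TPM, and Smn1 led the assembly list in replicate 2 at 78.9 TPM.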

How the data were processed

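Members and lists were chosen with earlier results of these data known. Per the deposited file descriptions, the authors quantified reads on mm10 with GENCODE M21 and M4 after aligning to the transcriptome, and with M21 directly from reads. Their tools and strand use are not stated there. The deposited expected counts are the authors' unnormalized estimates of fragments; the authors' TPM, per the file headers, are scaled over all entries of a table. Here log2 ratios used TPM with a pseudocount of 1, folds used TPM without one, the 2-fold comparison only genes averaging 50 expected counts, and a 0 a floor of 3 counts, which covers counting error only. No p-value is given, since there is 1 group with n = 2. Sequences and coordinates are from GENCODE M21 on mm10. Shared sequence was counted in runs of 31 bases on either strand. The counting code was tested on simulated data. Every member is given its level except 1 gene, which enters the counts and is not reported here; transcripts were described for members past the 20% share or with differing leading transcripts, and those shown are the highest of their type in the gene. Sf3b1-203, Snrpb-203 and the U2af1 exons were chosen after their values were seen. Of the other spliceosome genes, those under 1 TPM and some of the highest of each list are named. Python 3.11.15, numpy 2.4.6, pandas 2.3.3, matplotlib 3.10.9, R 4.3.3, edgeR 4.0.16 and DESeq2 1.42.0 were used, the last pair to scale rounded expected counts in alternatives.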

Additional observations from a re-analysis of the deposited data

How the results depend on the processing

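The counts of detected members and of other spliceosome genes detected and the number with the same leading transcript stayed within 1.5-fold under every alternative run for them: M4, the table made from reads, posterior means and, where they apply, rescaled TPM, other thresholds and ranking by expected counts. Between 25 and 36 members were detected over these tables and thresholds, and 31 to 37 with a replicate left out; for the other genes the last range was 61 to 72. The median log2 ratio of the members, -1.03 in the report, was between -1.73 in the read table and -0.31 in that table after rescaling, and below 0 in each setting run, CPM, TMM, DESeq2 size factors and another pseudocount included. The count of members over 2-fold apart was 21 to 30, and 13 in the read table rescaled over nuclear protein-coding genes, which was chosen after seeing the data. The Sm ring spread was 40.5-fold in the read table and 54.5-fold without replicate 2; without replicate 1 it has no value, since Snrpg was at 0. Members with a large share of other transcript types numbered 5 in the M4 transcript table, where 23.5% of genes passed, and 10 to 12 with a replicate left out. The cause of these changes was not tested. Without the 5 members that share at least 50% of their sequence, also chosen after seeing the data, 19 of 32 were over 2-fold apart and the median log2 ratio was -0.72. Of 148 recomputed member levels, 24 moved by more than 1 SD, 13 of them in the read table. Results that compare the replicates cannot leave one out. No paired analysis was possible because there is 1 group. The floor of 3 counts was 0.042 CPM in replicate 1 and 0.212 CPM in replicate 2, which limits low members there.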
